A study of Mus musculus with 6 samples.

Results

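The genes described here encode the subunits of the receptors for glutamate, GABA, glycine and acetylcholine (nicotinic type), as read in mouse Neuro2A cells, a neuroblastoma line. They were taken by symbol from the deposited gene table, among genes with a protein-coding transcript, with no use of their values. The rule found 68 genes of 55385 in the table. They were 4 AMPA, 5 kainate, 2 delta and 7 NMDA subunits and 8 metabotropic receptors for glutamate, 19 GABA-A and 2 GABA-B subunits, 5 glycine receptor subunits and 16 nicotinic subunits. Cells were transfected with si-circCpsf6, a small interfering RNA (siRNA) directed at the circular RNA circCpsf6 (3 libraries), or with si-NC, the siRNA used for comparison (3 libraries), each at 100 nM with a lipid reagent. All 6 libraries are from this line, labelled as neuroblasts of brain tissue, and no other genotype or treatment is named. The siRNA sequences were not given in the sources used here. No label states whether replicates came from different cultures, and p-values therefore cover only library-to-library spread, possibly technical.

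Ionotropic receptors are channels built from several subunits around a pore. Nicotinic, GABA-A and glycine receptors are pentamers, and AMPA, kainate and NMDA receptors are tetramers, so a subunit often needs a partner to reach the surface or to conduct. Metabotropic glutamate and GABA-B receptors signal through G proteins. In sympathetic ganglia, from whose lineage neuroblastoma arises, fast transmission runs through nicotinic receptors rich in the Chrna3 and Chrnb4 subunits.

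The values were labelled FPKM, a measure that divides a gene's fragments by its transcript length and its library's mapped total. Levels are set side by side between genes on that basis. The length used and the handling of strand were not given in the sources used here, so such comparisons are approximate. The steps between low values did not give read counts back: 25.7% to 29.7% of them were whole multiples of a step within 0.1. Chance gives 20% for a step set beforehand. Each library's step was fitted to these same values, so the chance share may be higher here. The depth behind a value is therefore unknown. Of 8 sympathoadrenal neuroblast markers, 7 had a mean of at least 1 FPKM. The list summed to 196 to 224 FPKM in si-circCpsf6 and 269 to 312 FPKM in si-NC. Of 8 neuron markers 7 reached that level, with sums of 503 to 531 FPKM in si-circCpsf6 and 566 to 720 FPKM in si-NC. Among markers of other cell types, 1 gene of each list averaged 1 FPKM or more for skeletal muscle (Myh3), oligodendrocytes (Mbp), fibroblasts (Col1a1) and endothelium (Pecam1). None did for astrocytes, where Aldh1l1 read 1.67 FPKM in si-circCpsf6 replicate 1, or for microglia and leukocytes. The host gene of the circle, Cpsf6, read 10.65, 15.06 and 14.5 FPKM in si-circCpsf6 and 14.09, 14.5 and 15.2 FPKM in si-NC, values that cannot tell circle and linear mRNA apart.

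Most receptor subunit genes were hardly read in these cells. Averaged over the 6 libraries, 1 FPKM or more was reached by 9 of the 68 genes (13.2%), against 10776 of 21804 protein-coding genes (49.4%). A further 26 (38.2%) were listed at 0 in every library, as were 24.0% of protein-coding genes. Among the 9 genes were, from the highest mean down, Chrna3, Grik5, Gabbr1, Chrnb2, Grin1, Chrna7, Chrna5 and Grin2d. Chrna3 averaged 31.3 FPKM over all libraries, above 89.2% of the 10776 protein-coding genes that reached 1 FPKM, while Grin2d, at 1.13 FPKM, was above 1.5% of them. Just outside the limit were Grin3b and Gria2, each with a mean of 0.95 FPKM.

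**Figure D1:**
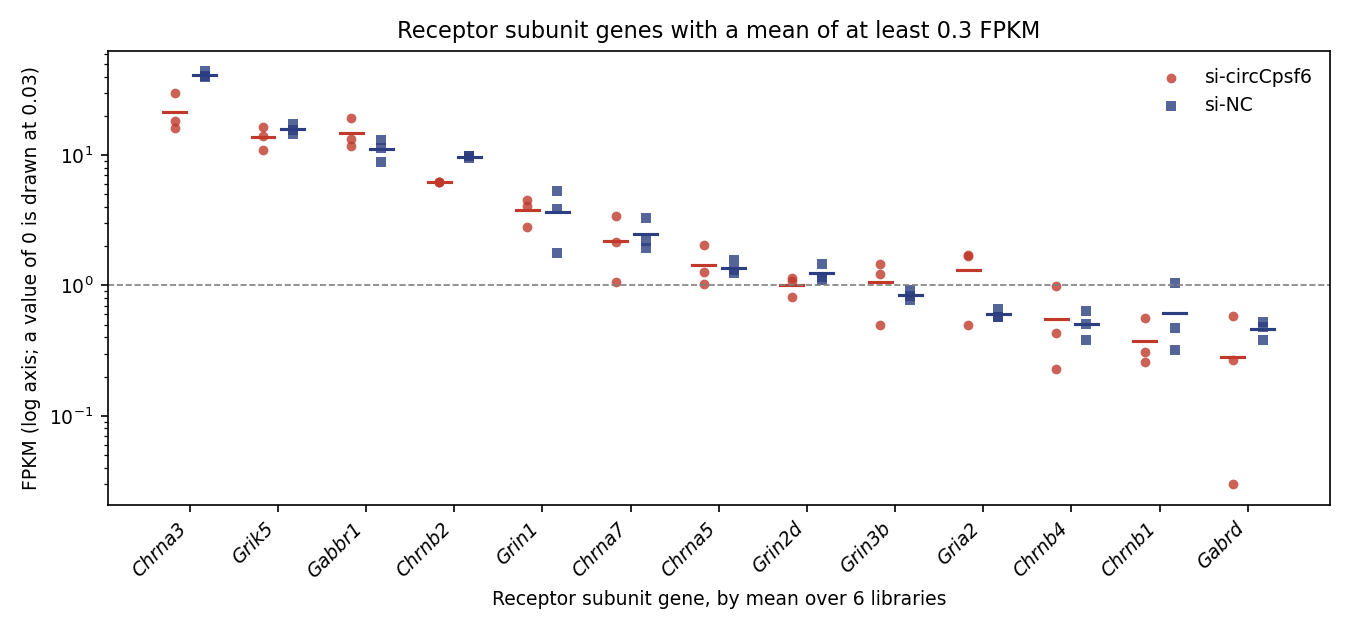
FPKM (log axis) of 13 receptor subunit genes averaging 0.3 FPKM or more, in si-circCpsf6 (red circles) and si-NC (blue squares), with 1 point per library and a bar at each group mean; the dashed line marks 1 FPKM. Of the genes drawn, Chrna3 and Chrnb2 have groups that lie apart, and Chrna3 is the highest in si-NC.

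An earlier pass over these data had found the heptamer GCAGAAT to be common in the 3' untranslated regions (3' UTRs) of genes that were lower in si-circCpsf6. Since that heptamer was picked on these libraries, its presence in a receptor gene is a description and supports nothing. It was searched on the transcript strand of the longest annotated 3' UTR of each gene (GENCODE M21, GRCm38), for those of at least 50 bases. It stood in 9 of 67 receptor subunit genes that could be searched (13.4%) and in 1086 of 10630 tested genes (10.2%). The 67 were searched whatever their level, while tested genes averaged 1 FPKM or more, and their median 3' UTR was longer, at 1951 bases. Of the 9 receptor genes at 1 FPKM or more, Chrnb2 alone carried it (11.1%), with 2 copies in a 3' UTR of 4667 bases, where the median over tested genes was 1174 bases. Gria2 carried 1 copy in 7268 bases. Chrna3 (2690 bases), Chrna5, Chrna7, Gabbr1, Grik5, Grin1 and Grin2d carried none. The windows below show the copies in the expressed carriers, 5′ to 3′ on the transcript strand, with the heptamer in capitals.
Chrnb2, chr3:89756547-89756553, minus strand: cttctgccagtGCAGAATtctctgtatctc
Chrnb2, chr3:89752489-89752495, minus strand: gtcctagagggGCAGAATggagcagggtct
Gria2, chr3:80685878-80685884, minus strand: atagtgtcaagGCAGAATattttttaattt
The second Chrnb2 copy lies within exon sequence of Adar on the other strand, and the first lies under no other annotated exon. The other carriers, Gabrb1, Gabbr2, Grin2b, Glra2, Grik3, Chrna4 and Chrna2, were read at 0.13 FPKM or less in every library.

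Whether receptor expression differed between si-circCpsf6 and si-NC was asked of the 9 genes averaging 1 FPKM or more. None passed the test over all 12974 genes that reached this level (limma on log2(FPKM + 1), Benjamini-Hochberg adjusted p under 0.05), a test that called 1.69% of them. At an unadjusted p under 0.05 there were 2 of the 9, Chrnb2 and Chrna3, or 22.2%, against 20.3% of all tested genes. The same 2 genes had groups that did not overlap, which held for 26.9% of all tested genes. These shares are close to the background. Of the 9 genes, 5 had a log2 fold change below 0, with a median of -0.15, where all tested genes had a median of -0.02 and 52.8% were below 0.

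**Figure D2:**
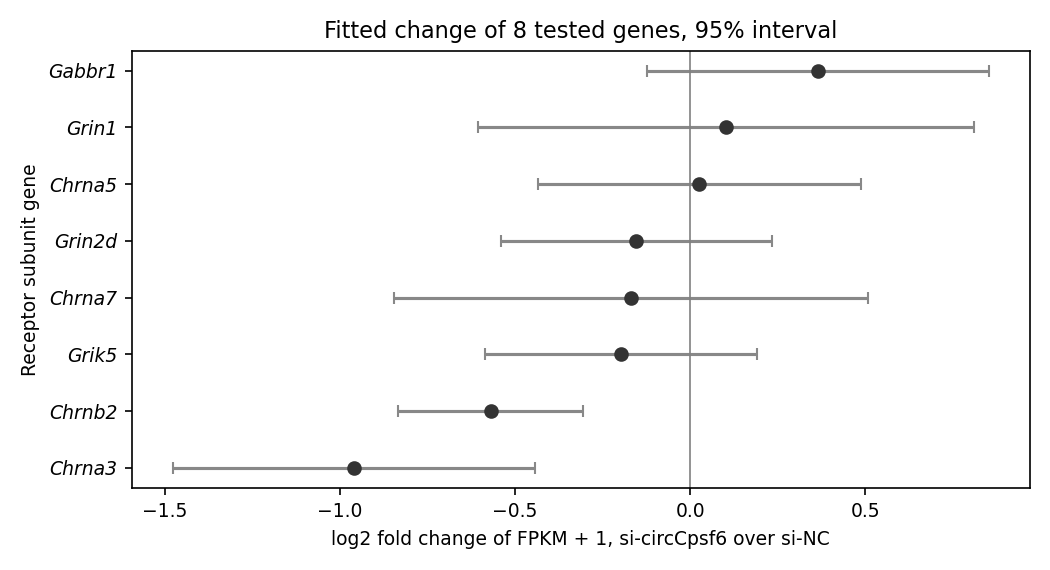
Fitted log2 fold change of FPKM + 1, si-circCpsf6 over si-NC, for 8 tested receptor subunit genes, with 95% intervals from limma (n = 3 each). The unadjusted intervals of Chrna3 (-1.48 to -0.44) and Chrnb2 (-0.83 to -0.30) lie below 0, and the other 6 drawn cross it.

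The receptor gene with the highest mean over the 6 libraries, Chrna3, was a nicotinic subunit gene. Chrna3 (ENSMUSG00000032303, chromosome 9, 55010111 to 55026562, minus strand, GRCm38) encodes an agonist-binding alpha subunit of ganglionic receptors. It read 16.14, 18.15 and 29.98 FPKM in si-circCpsf6, against 39.41, 40.37 and 43.89 FPKM in si-NC. Every si-circCpsf6 library was below every si-NC library, and replicate 3 of si-circCpsf6 stood closer to si-NC than the other replicates did. The means were 21.4 ± 7.48 FPKM and 41.2 ± 2.36 FPKM (SD, n = 3 each), a log2 fold change of -0.96 with a standard error of 0.22 (limma adjusted p = 0.0757). In bulk RNA, fewer cells that carry a transcript and less of it per cell cannot be told apart. The sums of sympathoadrenal and of neuron markers given above did not overlap between the groups either. Hand2 held the largest part of the sympathoadrenal sum and Tubb3 that of the neuron sum. Of single tested genes, 26.9% had groups that did not overlap, and no such share was computed for sums. Gene by gene the lists were mixed. Of 7 tested sympathoadrenal markers 5 were below 0 on the log2 scale and 2 above, with 4 at an unadjusted p under 0.05, and of 7 tested neuron markers 4 were below and 3 above, with 2 at that level, where 20.3% of all tested genes reached it. No marker passed the adjusted test. Phox2a, a transcription factor of autonomic neurons, read 40.83, 43.09 and 57.79 FPKM in si-circCpsf6 and 77.79, 63.3 and 80.63 FPKM in si-NC (limma adjusted p = 0.105). Hand2, another, averaged 119.5 ± 2.95 FPKM in si-circCpsf6 and 167 ± 10.9 FPKM in si-NC (limma adjusted p = 0.0974). Gata3, also a transcription factor, averaged 8.51 ± 1.69 FPKM in si-circCpsf6 and 6.64 ± 0.36 FPKM in si-NC (limma adjusted p = 0.345), and Th, the enzyme that makes L-DOPA, had a log2 fold change of 0.005. Of the neuron markers, Tubb3, a neuronal tubulin and the most abundant, averaged 391.8 ± 14.3 FPKM in si-circCpsf6 and 506.4 ± 76.8 FPKM in si-NC (limma adjusted p = 0.275). The 2 neuron markers at an unadjusted p under 0.05, Snap25 and Elavl4, went in opposite directions. Snap25 averaged 21.9 ± 1.67 FPKM in si-circCpsf6 and 28.2 ± 2.1 FPKM in si-NC (limma adjusted p = 0.174). Elavl4, an RNA-binding protein of neurons, averaged 23.9 ± 7.22 FPKM in si-circCpsf6 and 14.4 ± 2.04 FPKM in si-NC (limma adjusted p = 0.181). Gata3, Th, Tubb3, Snap25 and Elavl4, like the muscle genes named further on, were chosen after their values were seen. The part of these markers in the Chrna3 values was not tested.

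Chrnb2 (ENSMUSG00000027950, chromosome 3, 89746195 to 89764632, minus strand) encodes a beta subunit that joins alpha subunits in neuronal receptors. It read 6.22, 6.23 and 6.2 FPKM in si-circCpsf6, against 9.48, 9.82 and 9.83 FPKM in si-NC. The replicates lay close together and the groups did not overlap. Its log2 fold change came to -0.57, standard error 0.11 (limma adjusted p = 0.0558). Chrnb2 shares 1365 of its 8380 exon bases (16.3%) with exons of Adar, an RNA-editing enzyme gene on the other strand. How strand was handled was not given in the sources used here, so reads of these bases could be counted for either gene. Adar read 10.71, 16.38 and 14.5 FPKM in si-circCpsf6 and 11.49, 11.76 and 11.17 FPKM in si-NC, with overlapping groups (limma log2 fold change 0.23, adjusted p = 0.478).

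The calls on both genes depended on which genes were tested beside them. With the 10776 protein-coding genes alone, where 4.06% were called, Chrnb2 and Chrna3 both passed (limma adjusted p = 0.0384 and 0.0499). With a mean of at least 5 FPKM, where 2.79% were called, Chrnb2 passed and Chrna3 did not (limma adjusted p = 0.047 and 0.0712). Over 15 alternative fits the limma adjusted p ran from 0.0384 to 0.248 for Chrnb2 and from 0.0499 to 0.265 for Chrna3. Both were highest without si-NC replicate 3. The fit with no filter and a pseudocount of 0.1 is not among the 15. In the authors' deposited table the q-value was 0.01 for Chrna3 and 0.03 for Chrnb2, with ratios of 0.52 and 0.64. Neither is marked significant there, a mark whose genes all had an absolute log2 ratio of at least 1.

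**Figure D3:**
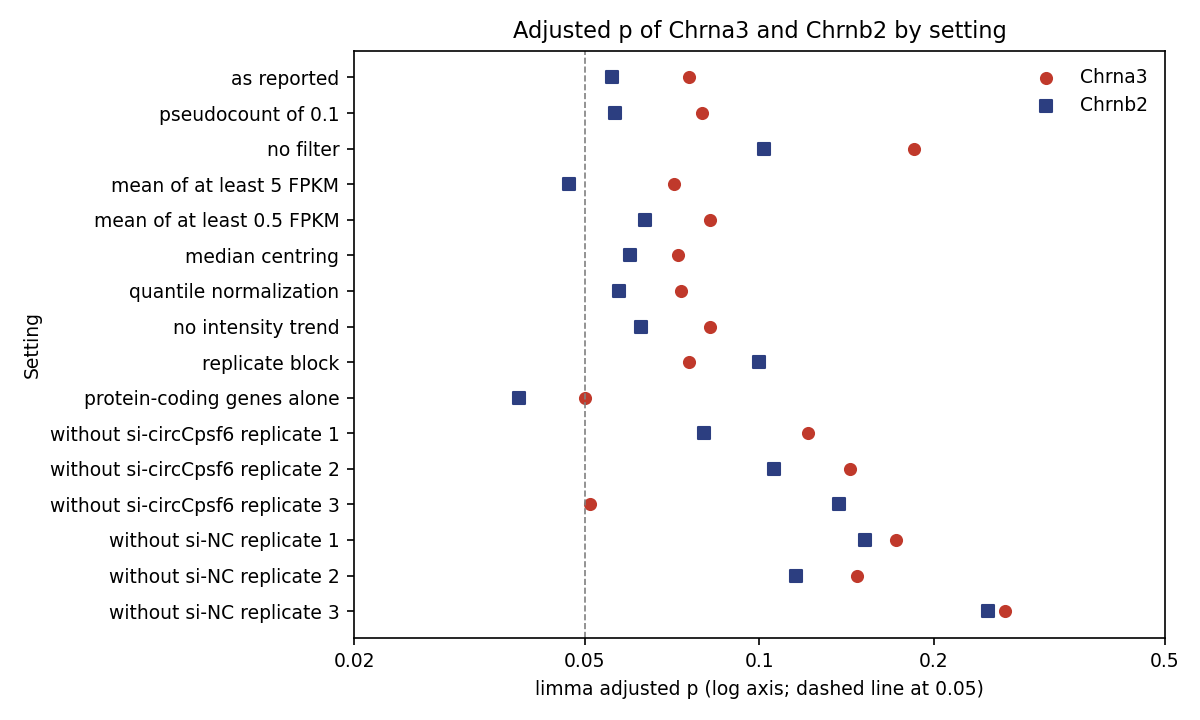
limma adjusted p (log axis) of Chrna3 (red circles) and Chrnb2 (blue squares) for si-circCpsf6 against si-NC, as reported and under 15 alternative fits, with a dashed line at 0.05. Chrnb2 lies left of the line with protein-coding genes alone and with a mean of at least 5 FPKM, and Chrna3 lies just left of it with protein-coding genes alone.

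Chrna3 lies between Chrna5 and Chrnb4 on chromosome 9, and the 3 genes had unlike values. Chrna5 (54980880 to 55007779, plus strand), an accessory subunit that joins other alpha and beta subunits, read 1.27, 1.02 and 2.05 FPKM in si-circCpsf6 and 1.24, 1.31 and 1.56 FPKM in si-NC. Chrnb4 (55028154 to 55048779, minus strand), a usual partner of Chrna3 in ganglia, read 0.43, 0.23 and 0.99 FPKM in si-circCpsf6 and 0.64, 0.38 and 0.51 FPKM in si-NC. Both overlapped between the groups, and Chrnb4 was under the limit of the test. The log2 fold change of Chrna5 was 0.03 with a 95% interval of -0.44 to 0.49 (limma adjusted p = 0.959). In both genes si-circCpsf6 replicate 3 was the highest library of its group, as it was for Chrna3. This was not particular to these neighbours. It held for Chrna7 and Chrnb1 on other chromosomes too, while the same library was the lowest of its group for Chrnb2 and Grik5. The FPKM of Chrna3 was 12.7, 17.8 and 14.6 times that of Chrna5 in si-circCpsf6 and 31.8, 30.8 and 28.1 times in si-NC, so this ratio did not overlap between the groups. Its ratio to Chrnb2 did overlap, at 2.595, 2.913 and 4.835 in si-circCpsf6 and 4.157, 4.111 and 4.465 in si-NC. The ratio to Chrna7 overlapped too, at 15.084, 8.481 and 8.844 in si-circCpsf6 and 17.914, 20.809 and 13.26 in si-NC. No share over other pairs of genes was computed. Chrna7 (chromosome 7, 63098692 to 63212569), whose product forms receptors from a single kind of subunit, read 1.07, 2.14 and 3.39 FPKM in si-circCpsf6 and 2.2, 1.94 and 3.31 FPKM in si-NC. The groups overlapped, and the si-circCpsf6 range took in every si-NC library (log2 fold change -0.17, 95% interval -0.85 to 0.51, limma adjusted p = 0.789).

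Summed over the 16 nicotinic genes, FPKM came to 25.7, 28.3 and 43.2 in si-circCpsf6, against 53.5, 55.1 and 59.5 in si-NC. Chrna3 made up 65.4% ± 3.47 of this sum in si-circCpsf6 and 73.6% ± 0.25 in si-NC (SD, n = 3 each), so the sums largely repeat its values. Chrnb2 made up 20.2% ± 5.17 in si-circCpsf6 and 17.4% ± 0.72 in si-NC. The subunits of the muscle receptor were low in both groups. Chrnb1 read 0.31, 0.26 and 0.56 FPKM in si-circCpsf6 and 0.47, 1.05 and 0.32 FPKM in si-NC. Chrnd reached 0.16 FPKM, Chrna1 0.07 FPKM, and Chrng and Chrne 0.02 FPKM in their highest library. The 7 skeletal muscle markers summed to 47.1 to 62.5 FPKM in si-circCpsf6 and 58.6 to 65.5 FPKM in si-NC. Most of this was Myh3, the embryonic myosin heavy chain, which read 60.16, 45.91 and 56.9 FPKM in si-circCpsf6 and 64.25, 57.44 and 63.64 FPKM in si-NC. Acta1 reached 3.63 FPKM and Ckm 1.01 FPKM, both in si-circCpsf6 replicate 3, and Myod1, a transcription factor that defines skeletal muscle, was listed at 0 in all libraries. The neuronal subunit Chrna4, the main partner of Chrnb2 in brain, reached 0.06 FPKM, Chrna9, a subunit of hair cell receptors, reached 0.08 FPKM, and Chrna2, Chrna6, Chrna10 and Chrnb3 were listed at 0.

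**Figure D4:**
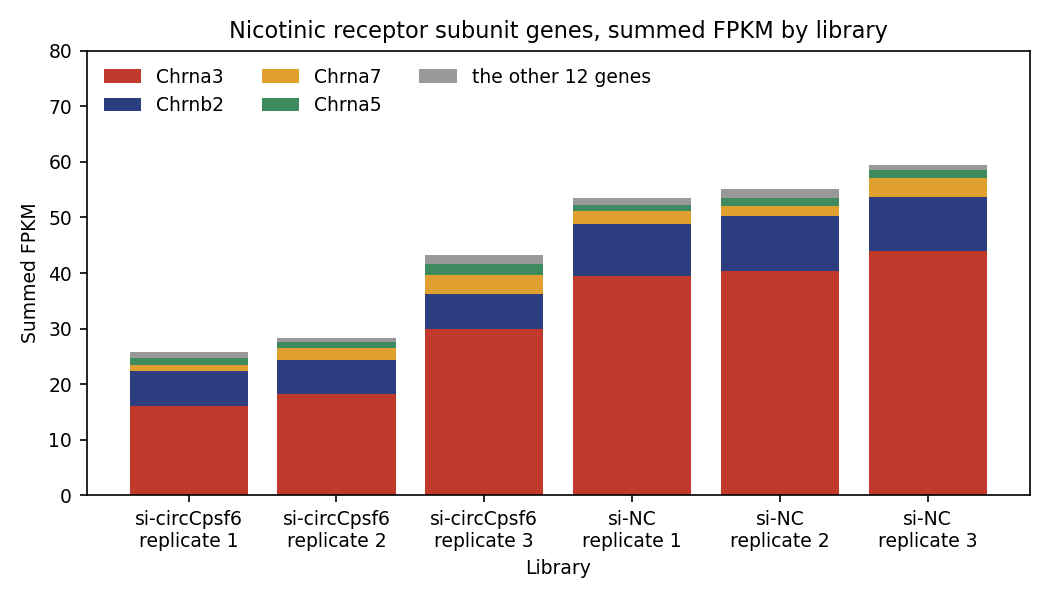
Summed FPKM of the 16 nicotinic subunit genes in each library, 3 of si-circCpsf6 (left) and 3 of si-NC (right), split into Chrna3, Chrnb2, Chrna7, Chrna5 and the other 12 genes. Chrna3 is the largest block in every library, and the sums run from 25.7 to 43.2 in si-circCpsf6 and from 53.5 to 59.5 in si-NC.

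Among GABA-A subunits, Gabrd, the delta subunit of receptors outside synapses, read 0.58, 0 and 0.27 FPKM in si-circCpsf6 and 0.48, 0.38 and 0.52 FPKM in si-NC. Gabra5 reached 0.13 FPKM, Gabrr1 0.11 FPKM, Gabrb1 0.09 FPKM, Gabrr2 0.04 FPKM, and Gabra3 and Gabrb2 0.01 FPKM. The alpha subunit genes Gabra2, Gabra4 and Gabra6 were listed at 0 in every library, as were Gabrg1, Gabrg3, Gabre, Gabrp, Gabrq and Gabrr3.

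The GABA-B receptor is a dimer of Gabbr1, which binds GABA, and Gabbr2, which couples to the G protein and carries the pair to the surface. Gabbr1 (chromosome 17, 37045966 to 37075067) read 19.17, 11.8 and 13.25 FPKM in si-circCpsf6, against 12.95, 8.92 and 11.44 FPKM in si-NC. The groups overlapped, and replicate 2 was the lowest library of each. Its log2 fold change came to 0.37, standard error 0.21 (limma adjusted p = 0.38). Gabbr2 was at 0.02 FPKM or less in every library, so Gabbr1 held at least 99.8% of the sum of the pair.

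Of the glutamate receptor channels, the kainate subunit gene Grik5 (chromosome 7, 25009849 to 25072346) was the highest. It encodes a high-affinity subunit that conducts only together with partners from Grik1, Grik2 or Grik3. It read 16.43, 13.95 and 10.92 FPKM in si-circCpsf6 and 14.49, 17.2 and 15.63 FPKM in si-NC, with overlapping groups (log2 fold change -0.20, 95% interval -0.59 to 0.19, limma adjusted p = 0.551). Grik3 reached 0.13 FPKM, and Grik1, Grik2 and Grik4 were listed at 0.

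Grin1 encodes the subunit that every NMDA receptor contains. It read 4.05, 2.83 and 4.5 FPKM in si-circCpsf6 and 5.33, 1.79 and 3.87 FPKM in si-NC (log2 fold change 0.10, 95% interval -0.61 to 0.81, limma adjusted p = 0.886). Replicate 2 was the lowest library of each group. Of the glutamate-binding partners, Grin2d read 0.82, 1.15 and 1.08 FPKM in si-circCpsf6 and 1.17, 1.45 and 1.11 FPKM in si-NC (limma log2 fold change -0.15, adjusted p = 0.649). Grin2c reached 0.02 FPKM, and Grin2a and Grin2b were listed at 0. Grin3b, a glycine-binding subunit, read 0.5, 1.46 and 1.23 FPKM in si-circCpsf6 and 0.78, 0.83 and 0.92 FPKM in si-NC. The values of these genes may hold reads of others on the opposite strand. Grin3b shares 32.1% of its exon bases with Tmem259, which averaged 19.5 ± 2.32 FPKM in si-circCpsf6 and 17.9 ± 0.27 FPKM in si-NC. Grin1 shares 13.5% with the antisense gene Grin1os, at most 0.63 FPKM, and Grin2d shares 9.7% with the antisense gene Gm45441, at most 1.02 FPKM.

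The AMPA subunit gene Gria2, whose edited product limits calcium entry, read 1.72, 0.5 and 1.69 FPKM in si-circCpsf6, against 0.66, 0.57 and 0.57 FPKM in si-NC. Replicates 1 and 3 of si-circCpsf6 were above all si-NC libraries, and replicate 2 was below them. In the authors' deposited table Gria2 is marked significant, with a ratio of 2.17 and a q-value of 0.09. Tested on log2(FPKM + 1) with a filter of 0.5 FPKM, its log2 fold change came to 0.47, standard error 0.25 (limma adjusted p = 0.353). The added 1 makes a fold change smaller at such low values, so this figure and the authors' ratio are on unlike scales. With no filter and a pseudocount of 0.1 it came to 0.84 (limma adjusted p = 0.581). Gria1 reached 0.06 FPKM, Gria3 0.03 FPKM, and Gria4 was listed at 0. The delta subunit gene Grid1 reached 0.01 FPKM.

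Of the metabotropic glutamate receptors, which act through G proteins, Grm2 reached 0.02 FPKM, Grm3, Grm5 and Grm8 reached 0.01 FPKM, and Grm4, Grm6 and Grm7 were listed at 0.

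By the authors' deposited q-value, 3 of 68 genes were under 0.05 (4.41%), Chrna3 and Chrnb2 among them, against 1.47% of the table. By the mark in the authors' deposited table, 2 of 68 genes were significant (2.94%), Gria2 among them, against 1.72%. Of the 42 receptor genes with any value above 0, 4 had groups that did not overlap (9.52%, against 16.5% of all such genes). Among these were Chrna3, Chrnb2 and Grin3a, a glycine-binding NMDA subunit that reached only 0.09 FPKM. With 3 libraries a group the smallest two-sided p of an exact permutation test is 0.1, and none was run.

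Glycine receptor genes were hardly read. Glra4 reached 0.26 FPKM, Glra1 0.04 FPKM and Glrb, the beta subunit that ties the receptor to gephyrin, 0.02 FPKM, while Glra2 and Glra3 were listed at 0.

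Genes that act with these receptors were read from lists chosen by role. Of 14 tested scaffolds of glutamate receptors, 1 passed and was higher, where 0.902% of all tested genes were called higher. This was Dlg3, which encodes a membrane-associated guanylate kinase that binds NMDA receptor tails. Dlg3 (chromosome X, 100767722 to 100818410) rose to 6.53, 6.39 and 6.21 FPKM in si-circCpsf6, against 2.31, 1.17 and 1.51 FPKM in si-NC, a log2 fold change of 1.49 with a standard error of 0.18 (limma adjusted p = 0.0227). It was not called without si-circCpsf6 replicate 2 (limma adjusted p = 0.0649) or 3 (0.0709), nor without si-NC replicate 2 (0.055) or 3 (0.118), and not with no filter (0.0869), a setting that called 0.0431% of 30181 genes. The median over the list was 0.19 on the log2 scale, and 10 of the 14 genes were above 0.

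No gene passed in the other lists. Of 6 tested auxiliary subunits of glutamate receptors, 3 were above 0 and 3 below, with a median of -0.07. Cacng8, an AMPA receptor regulatory protein, averaged 2.27 ± 0.16 FPKM in si-circCpsf6 and 1.18 ± 0.29 FPKM in si-NC (limma adjusted p = 0.107). Cnih2, a cornichon protein that slows AMPA receptor closing, averaged 1.55 ± 0.15 FPKM in si-circCpsf6 and 2.72 ± 0.40 FPKM in si-NC (limma adjusted p = 0.115). All 3 tested partners of nicotinic receptors were above 0, with a median of 0.50. Agrn, the organiser of the neuromuscular synapse, averaged 43.7 ± 8.98 FPKM in si-circCpsf6 and 27.4 ± 3.21 FPKM in si-NC (limma adjusted p = 0.104). Rapsn, which clusters muscle receptors, averaged 2.45 ± 0.49 FPKM in si-circCpsf6 and 1.43 ± 0.19 FPKM in si-NC (limma adjusted p = 0.16). At an unadjusted p under 0.05 there were 3 of the 6 auxiliary genes and 2 of the 3 nicotinic partners, where 20.3% of all tested genes reached that level.

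Of 9 tested scaffolds and assembly factors of GABA and glycine receptors, 7 were above 0, with a median of 0.20 and none at an unadjusted p under 0.05. Gphn, which encodes the scaffold gephyrin, averaged 20.3 ± 1.62 FPKM in si-circCpsf6 and 17.1 ± 0.58 FPKM in si-NC (limma adjusted p = 0.321). Gabarapl1, of the family that binds GABA-A receptors and autophagosomes, averaged 55.4 ± 17.9 FPKM in si-circCpsf6 and 38.6 ± 3.87 FPKM in si-NC (limma adjusted p = 0.295). Of 8 tested genes of transmitter synthesis and transport, 7 were above 0, with a median of 0.24. At an unadjusted p under 0.05 there were 2 of these 8, where 20.3% of all tested genes reached that level. Abat, which breaks down GABA, averaged 5.86 ± 1.16 FPKM in si-circCpsf6 and 9.98 ± 1.17 FPKM in si-NC (limma adjusted p = 0.0808). Slc1a5, a transporter of glutamine and other neutral amino acids, averaged 79.3 ± 17.5 FPKM in si-circCpsf6 and 46.5 ± 13.1 FPKM in si-NC (limma adjusted p = 0.128).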

How the data were processed

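RNA was extracted with Trizol, per the labels' protocols, which name a kit for small RNA for the libraries. The sample titles call every library mRNA-Seq. The labels thus differ on the kind of library, and nothing in the sources used here settles it. The authors deposited 1 table with FPKM per gene and library at 2 decimals, their fold change as a ratio, its log2, and p-values and q-values at 2 decimals, per the file headers. The log2 column equals the log2 ratio of group means within 0.009 in 11448 genes above 1 FPKM in all libraries. Bowtie 0.12.2 and 2 builds, mm8 and mm9, appear with no role, per the submitters' processing notes. How p-values and FPKM were computed was not given in the sources used here.

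Groups came from sample titles. limma 3.58.1 in R 4.3.3 was run on log2(FPKM + 1) for the 12974 genes averaging 1 FPKM or more. The model held group alone, with a trend of variance on intensity and Benjamini-Hochberg adjustment over all of them. The code was tested on simulated data. Receptor genes at 1 FPKM are named with every library, other receptor genes by class, and list genes if called or else by the 2 smallest p. Some genes are not reported here. The genes and lists were chosen with earlier results of these data known. All 20 housekeeping genes checked were above 0 in every library. Positions, exons and 3' UTRs came from GENCODE M21 (GRCm38). Python 3.11.15 with pandas 2.3.3 and matplotlib 3.10.9 was used.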

Additional observations from a re-analysis of the deposited data

How the results depend on the processing

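No receptor subunit gene was called in the reported fit. The count was 1 with a mean of at least 5 FPKM, 2 with protein-coding genes alone and 3 by the authors' deposited q-value, and 0 under every other setting run, each fit with a library left out included. Over all genes 219 were called, against 13 with no filter, 21 with no filter and a pseudocount of 0.1, 437 for protein-coding genes alone, 816 by the authors' q-value and 3 to 87 with a library left out. Of the list genes 1 was called (Dlg3), and 0 with no filter or with no filter and a pseudocount of 0.1, and 0 to 1 with a library left out. With a mean of at least 5 FPKM 0 list genes were called, but that filter left Dlg3 out, so it was not tested there. With the replicate block 11 of all genes, 0 list genes (Dlg3 at a limma adjusted p of 0.0541) and 0 receptor genes were called. Deviations of same-numbered libraries correlated at 0.103, 0.129 and 0.084, each the highest for its number. The 0.084 stood beside 0.078 between si-circCpsf6 replicate 3 and si-NC replicate 1. These correlations were not tested, so they cannot decide whether the libraries were paired, and the design names no pairing.

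Signs turned in genes near 0: with a library left out, log2 fold changes ran from -0.43 to 0.11 in Chrna7 (above 0 without si-circCpsf6 replicate 1), from -0.23 to 0.36 in Grin1 (below 0 without si-circCpsf6 replicate 3 or si-NC replicate 2) and from -0.14 to 0.15 in Chrna5 (below 0 without si-circCpsf6 replicate 3 or si-NC replicate 1). Chrnb4 turned to -0.062 with no filter and a pseudocount of 0.1. The cause was not tested. Because FPKM carry no counts, the precision of genes under 1 FPKM is unknown.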
